A study of Homo sapiens with 8 samples.

Results

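The respiratory chain of the inner mitochondrial membrane is built from subunits of mixed origin, most of them encoded in the nucleus. Complexes I and II pass electrons from NADH and succinate to ubiquinone, complex III hands them to cytochrome c, complex IV reduces oxygen, and complex V, the ATP synthase, uses the proton gradient to make ATP. In beta cells this ATP closes potassium channels in the plasma membrane and so couples glucose metabolism to insulin secretion.

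The nuclear-encoded respiratory chain genes were taken by symbol from the protein-coding genes outside the mitochondrial genome: NDUFA, NDUFB, NDUFC, NDUFS and NDUFV genes, SDHA to SDHD, UQCR genes, CYC1, CYCS, the numbered COX subunits and the ATP5F, ATP5M and ATP5P genes. The rule found 90 of the 16525 listed genes, of which 13401 are protein-coding. It used no expression value. Of the 90 genes, 38 belong to complex I by symbol (with NDUFAB1, NDUFA4 and NDUFA4L2 counted there), 8 are NDUFAF assembly factors of complex I, 4 form complex II, 10 complex III, 12 complex IV and 17 complex V, and 1 encodes cytochrome c. NDUFV2, COX4I2, COX6A2 and COX7A1 were not analysed here.

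RNA was sequenced from EndoC-βH5, a human beta-cell line derived from fetal pancreas that was immortalised with SV40 large T antigen and telomerase transgenes, which were later removed. Control cells (4 libraries) were left untreated, and cytokine-exposed cells (4 libraries) received IL-1β at 50 U/mL with IFNγ and TNFα, each at 1000 U/mL, over 48 hours, so the comparison asks how a cytokine mixture used to model type 1 diabetes changes the transcriptome. All libraries come from 1 cell line, and nothing in the labels ties them to separate thaws or passages, so the spread between libraries may be partly technical. A control and a cytokine column share the first part of their names in 4 pairs, called A to D here, and the names of pairs C and D have another ending than those of A and B.

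Between 36577438 and 40117636 reads per library fell on listed genes. The control and cytokine libraries of a pair resembled each other, and pairs A and B differed from C and D. The 9 beta-cell markers were all listed and summed to 23225 to 35872 CPM (read counts scaled to the library total) in control and 28662 to 52415 CPM in cytokine libraries. CHGA and IAPP made up most of this sum, and 4 of the markers were called lower by limma: PDX1 (log2 fold change -0.78, FDR 0.000451), SLC30A8 (-1.20, FDR 0.000178), MAFA (-2.27, FDR 2.12e-05) and G6PC2 (-2.60, FDR 1.72e-05). The other islet hormones summed to 463 to 2177 CPM in control and 553 to 1996 CPM in cytokine libraries. Of the listed markers of other cells, COL1A1 was at most 0.844 CPM and CD14 at most 3.26 CPM in any library. Exocrine and duct markers, of which CPA1 and KRT19 were listed, summed to 88.2 to 167 CPM in control and 84.6 to 166 CPM in cytokine libraries.

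Motif letters, which the rule did not use, were counted in the start regions. NRF1 (nuclear respiratory factor 1), the ETS factor GABP and YY1 are known regulators of respiratory genes. RefSeq windows of GRCh38.p14 from 250 bases before to 50 after the transcription start were available for 73 of the 90 genes and were searched on both strands. The NRF1 letters TGCGCATGC were in the windows of 10 genes (13.7%), against 3.09% of 10748 other listed protein-coding genes and 1.56% of all 35116 windows. The YY1 letters AAGATGGCG were also in the windows of 10 genes (13.7%), against 4.40% of the other genes and 1.75% of all windows. The ETS letters CCGGAAG were in the windows of 23 genes (31.5%), against 21.5% of the other genes and 10.3% of all windows. A gene can have several windows, so a share of genes and a share of windows are not the same measure. Matches of different motifs may overlap, and a match is only a description of the letters.

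Stretches around the NRF1 letters, which are in capitals, are shown for 4 genes whose values are described here, 5′ to 3′ in the direction of the gene. They are chr3:120596159-120596207 (plus strand), chr11:112086742-112086790 (plus), chr12:120437875-120437923 (plus) and chr12:53676361-53676409 (minus). The first capital lies 157, 111, 218 and 59 bases before the start. In NDUFB4 and COX6A1 the capitals are the reverse complement of the NRF1 letters given above, so the match is on the opposite strand.
NDUFB4: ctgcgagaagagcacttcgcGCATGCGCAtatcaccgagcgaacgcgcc
SDHD: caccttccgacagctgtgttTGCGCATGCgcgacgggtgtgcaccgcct
COX6A1: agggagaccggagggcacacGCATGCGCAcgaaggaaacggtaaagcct
ATP5MC2: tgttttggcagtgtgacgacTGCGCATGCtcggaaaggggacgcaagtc

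The YY1 letters lay just after the start in NDUFA9, which was called higher with cytokines, and in NDUFA7, which had the lowest fold change. They also lay just after the start in NDUFA6, NDUFAF8, NDUFB8, NDUFS4, NDUFS7, SDHB and UQCRC1, none of which was called on CPM. The stretches of NDUFA9 and NDUFA7 are chr12:4649116-4649140 (plus strand) and chr19:8321345-8321369 (minus), and the capitals begin at bases 11 and 15 of the transcript.
NDUFA9: tgtgggaaAAGATGGCGgctgccgc
NDUFA7: gcggacggAAGATGGCGtccgccac

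The nuclear respiratory chain genes were mostly close to their control level after 48 hours of cytokines. Genes were called where the log2 fold change went past 0.5 in either direction with an FDR below 0.05 (limma, Benjamini-Hochberg adjustment over all 16525 genes). Of the 90 genes, 2 were called (2.22%), against 27.0% of all genes. Both were called higher, NDUFA9 and NDUFA4L2, against 9.52% of all genes called higher, and both were counted under complex I by symbol. None of the 90 was called lower by this limma fit on deposited CPM, against 17.5% of all genes, or by edgeR or DESeq2. With CPM over nuclear genes limma called 2 lower (ATP5MG and NDUFC2), against 3400 of all genes. With a term for the pairs it called 1 lower (NDUFA7), against 3935 of all genes. An unadjusted limma p below 0.05 in either direction was found in 7 of the 90, against 6945 of all genes. Without the fold threshold, 6 genes (6.67%) had an FDR below 0.05, against 30.8%. The control and cytokine ranges did not overlap in 6 genes, 2 higher and 4 lower, against 32.8% of all genes without overlap in either direction.

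The median standard error of a log2 fold change was 0.203 for the 90 genes, 0.199 for all genes and 0.181 for all protein-coding genes. The log2 fold change lay between -0.3 and 0.3 in 66 of the 90 genes (73.3%), against 42.3% of all genes. The 95% interval of the log2 fold change lay wholly within 0.5 of 0 in 23 genes (25.6%), against 16.2% of all genes. They included ATP5F1B, the catalytic beta subunit of ATP synthase, UQCRFS1, the Rieske iron-sulfur protein of complex III, and SDHD, a membrane anchor of complex II. For the other genes the interval reached past the fold threshold on at least 1 side, so a change of that size was not excluded by the interval.

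With a term for the 4 pairs, the intervals narrowed and 38 genes (42.2%) had an FDR below 0.05, 15 higher and 23 lower, against 58.8% of all genes. Passing the fold threshold as well were 3 genes (3.33%), against 35.4% of all genes, NDUFA7 being added to NDUFA9 and NDUFA4L2. The interval then lay within 0.5 of 0 in 65 genes (72.2%), against 35.4%. At an FDR below 0.05 with the pair term, 5 complex I genes were higher and 11 lower, and in complex III 0 were higher and 3 lower. In complex IV 4 were higher and 1 lower, and in complex V 2 were higher and 5 lower. This split depended on scaling. With TMM and the pair term, 37 genes (41.1%) had an FDR below 0.05, against 58.4% of all genes, and 29 of them were higher and 8 lower. Complex I then had 12 higher and 4 lower, complex III 3 higher and 2 lower, complex IV 7 higher and 0 lower, and complex V 3 higher and 1 lower.

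The direction of the median depended on scaling. On deposited CPM the median log2 fold change was -0.06 for the 90 genes and -0.17 for all genes. After TMM scaling, which sets libraries to a common level by their less changed genes, the medians were 0.10 and -0.01. Values above 0 were found in 37 of the 90 genes on CPM and in 59 after TMM. On either scale, the median of the respiratory genes lay above that of all genes. TMM scaling called 4 genes higher (4.44%, against 13.1% of all genes) and 0 lower (against 11.6%), adding NDUFB4 and COX7B. With TMM and the pair term together, 10 were called higher (11.1%, against 15.9% of all genes) and 0 lower. The 8 additions to NDUFA9 and NDUFA4L2 were NDUFB4, NDUFA1, NDUFB8, NDUFAF2, NDUFAF4, SDHA, COX7A2 and COX7B, with TMM log2 fold changes of 0.50 to 0.59. Fewer reads of a gene per cell and a smaller share of cells with it cannot be told apart in these bulk libraries.

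**Figure D1:**
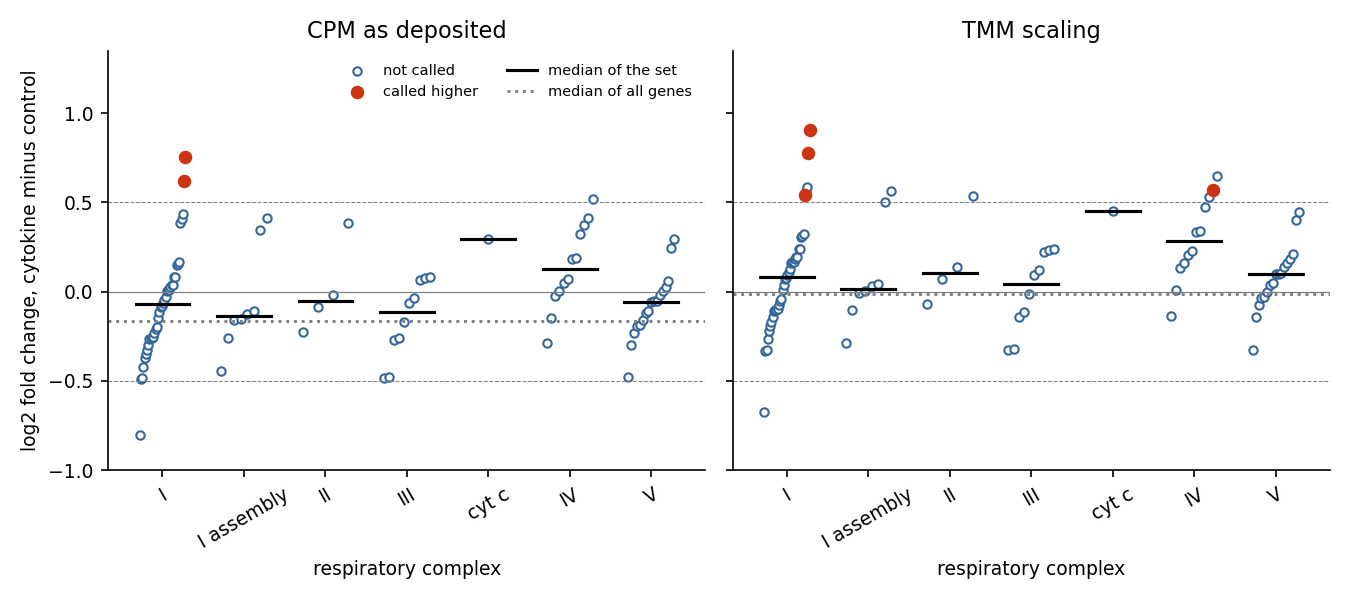
Log2 fold change (cytokine minus control) of each of the 90 genes by complex, on deposited CPM (left) and after TMM scaling (right), with the 0.5 thresholds dashed. Points are genes, black bars are medians, filled points were called higher, and the dotted line of all genes lies at -0.17 on CPM and -0.01 after TMM.

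NDUFA9 encodes an accessory subunit of the complex I arm near the ubiquinone site. Its level was 4.60, 4.72, 4.50 and 4.54 CPM in control libraries A to D and 7.54, 8.78, 5.07 and 7.64 CPM in cytokine libraries A to D. Each cytokine library lay above the 4 controls, cytokine C only just. The means were 4.59 ± 0.0969 and 7.26 ± 1.56 CPM (SD, n = 4 each), and the log2 fold change was 0.62 (SE 0.19, limma FDR 0.0268). It kept its call when control A, control C or cytokine C was left out, and lost it without control B or D or cytokine A, B or D, at log2 fold changes of 0.52 to 0.64. The call was also lost with CPM over nuclear genes.

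The level of NDUFA9 per length was low. It was 1.69 ± 0.211 TPM (a level per length of all annotated exons of the gene) in control libraries, against a median of 36.8 TPM over the complex I genes. The gene lies at chr12:4649095-4694317 (GRCh38), and 10.6% of its exon bases are also exon of AC005833.1 on the same strand in GENCODE 29, which is another release than the Ensembl annotation the reads were counted on. Reads that overlap more than 1 gene are left out by the default counting that the methods name. The part of this in the fold change was not tested.

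NDUFA4L2, a paralogue of NDUFA4 known from hypoxic cells, where it restrains complex I activity, was at 1.26, 1.38, 1.73 and 0.997 CPM in control and 2.66, 2.54, 2.29 and 1.79 CPM in cytokine libraries A to D. The ranges did not overlap, although control C and cytokine D almost met. The log2 fold change was 0.76 (SE 0.23, limma FDR 0.0300). On the per-length scale the level was 1.83 ± 0.526 TPM in control and 3.39 ± 0.293 TPM in cytokine libraries (n = 4 each), among the lowest of the 90 genes. It lost its call without each of 6 libraries (control A, B or D, cytokine A, B or C), at log2 fold changes of 0.63 to 0.78.

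NDUFA4 itself, a subunit now assigned to complex IV, was at 6.48, 6.63, 16.5 and 11.5 CPM in control and 8.75, 7.86, 13.6 and 13.2 CPM in cytokine libraries A to D. The values of pairs C and D lay above those of A and B in either condition, and the log2 fold change was 0.15 (SE 0.31, limma FDR 0.752). C15orf48, the third paralogue, which can take the place of NDUFA4 in complex IV, was called lower at -1.01 (SE 0.30, limma FDR 0.0265). It was at 1.22, 1.86, 1.43 and 1.04 CPM in control and 0.468, 1.07, 0.483 and 0.603 CPM in cytokine libraries, so cytokine B overlapped control D. The call was lost after TMM scaling (log2 fold change -0.87, limma FDR 0.0556).

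NDUFB4, an accessory subunit of the membrane arm, was at 63.3, 70.0, 86.5 and 61.4 CPM in control and 89.4, 90.7, 99.4 and 84.6 CPM in cytokine libraries A to D. The cytokine library was higher in each pair, but control C lay above cytokine D. Its log2 fold change was 0.38 on CPM (SE 0.13, limma FDR 0.0452) and 0.54 after TMM (limma FDR 0.00557). COX7B, a small subunit of complex IV, was also called after TMM (0.57, limma FDR 0.0370) and not on CPM, where it went from 17.8, 14.1, 26.6 and 20.8 CPM in control to 22.2, 23.7, 34.1 and 24.4 CPM in cytokine libraries A to D.

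The 4 genes with cytokine values wholly below the control values are named here after their values were seen: NDUFV1, NDUFC2, NDUFA10 and ATP5MG. None passed the fold threshold. NDUFV1, the flavoprotein that takes electrons from NADH, was at 87.8, 86.4, 96.9 and 99.4 CPM in control and 69.3, 72.0, 78.4 and 75.0 CPM in cytokine libraries A to D. Its log2 fold change was -0.33 (SE 0.10, limma FDR 0.0347).

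NDUFC2, a subunit of the membrane arm, was at 13.4, 16.2, 15.01 and 13.5 CPM in control and 11.8, 10.5, 9.84 and 9.36 CPM in cytokine libraries, a log2 fold change of -0.48 (SE 0.14, limma FDR 0.0204). ATP5MG, the g subunit of ATP synthase, was at 21.9, 22.5, 25.8 and 22.02 CPM in control and 16.9, 16.3, 15.3 and 17.4 CPM in cytokine libraries, also -0.48 (SE 0.12, limma FDR 0.0103). For NDUFA10 the log2 fold change was -0.30 (SE 0.11, limma FDR 0.0679 without and 0.00126 with the pair term). ATP5MG and NDUFC2 were both called lower with CPM over nuclear genes (-0.54 each) and when control A or control D was left out, ATP5MG also without cytokine D and NDUFC2 also without cytokine A, at -0.50 to -0.54 in all. After TMM scaling these values shrank towards 0, to -0.17, -0.33, -0.32 and -0.14 for NDUFV1, NDUFC2, ATP5MG and NDUFA10, and of them only ATP5MG kept an FDR below 0.05 (0.0346). NDUFV1, NDUFC2 and ATP5MG share 8.36%, 16.3% and 8.19% of their exon bases with another gene on the same strand, and NDUFA10 shares none.

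**Figure D2:**
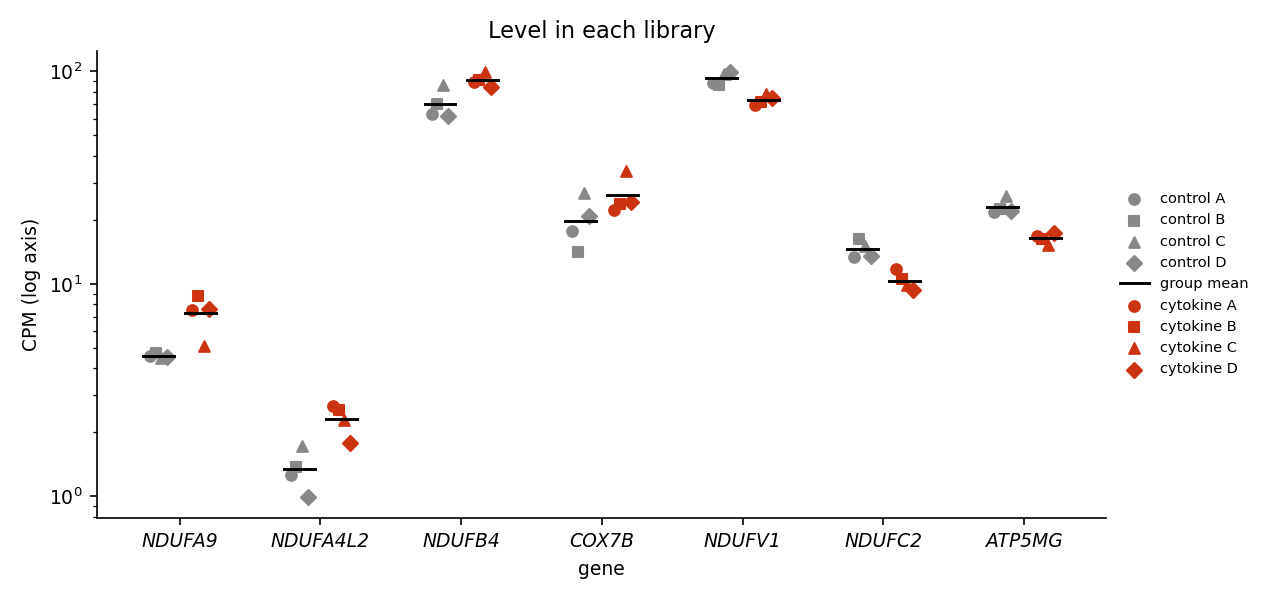
Level in CPM on a log axis of 7 genes in each of the 8 libraries, control in grey and cytokine in red, with the mean of each group as a bar and the pair as the symbol. The groups do not overlap in NDUFA9, NDUFA4L2, NDUFV1, NDUFC2 and ATP5MG, while NDUFB4 and COX7B overlap through control C.

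In complex I the most abundant transcript per length was NDUFB7, an accessory subunit of the membrane arm, at 389 ± 147 TPM in control and 312 ± 99.5 TPM in cytokine libraries (n = 4 each). It was at 43.9, 42.2, 72.4 and 52.6 CPM in control and 37.8, 27.8, 49.3 and 42.2 CPM in cytokine libraries A to D, lower in the cytokine library of each pair. Its log2 fold change of -0.42 (SE 0.21), short of the fold threshold, had a limma FDR of 0.151 without and 0.000396 with the pair term. The lowest fold change of the 90 genes was that of NDUFA7 (-0.80, SE 0.49, limma FDR 0.242). NDUFA7 was at 1.99, 1.59, 0.338 and 0.802 CPM in control and 0.937, 0.534, 0.282 and 0.502 CPM in cytokine libraries, again lower in each pair. It was called lower with the pair term (limma FDR 0.0203) or without control C, at -1.24. With TMM and the pair term the call was lost (-0.67, limma FDR 0.0507), and over the left-out libraries its log2 fold change ran from -1.24 to -0.49. As with NDUFA9, 32.3% of its exon bases are shared on the same strand.

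The 8 NDUFAF genes help to build complex I and are not part of it. None was called, and their median log2 fold change was -0.14. NDUFAF3, the most abundant, was at 65.2 ± 22.5 TPM in control and 62.2 ± 14.1 TPM in cytokine libraries (n = 4 each). NDUFAF4 had the highest log2 fold change (0.41, SE 0.24, limma FDR 0.221) and NDUFAF8 the lowest (-0.44, SE 0.22, limma FDR 0.156). Adding the pair term gave limma FDRs of 0.0371 and 0.00371, at folds short of the threshold. NDUFAF4 was called by DESeq2, and with TMM plus the pair term (limma, log2 fold change 0.56).

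Complex II, the succinate dehydrogenase that also serves the citric acid cycle, is wholly nuclear. None of its 4 genes was called. SDHA, the flavoprotein, was at 8.51, 8.25, 3.68 and 5.77 CPM in control and 9.77, 12.2, 5.11 and 7.21 CPM in cytokine libraries A to D. It was higher in the cytokine library of each pair by 0.20 to 0.55 on the log2 scale, yet the difference between pairs was larger. The log2 fold change of 0.38 (SE 0.32), below the fold threshold, had a limma FDR of 0.393 without and 0.0125 with the pair term. Its level of 2.90 ± 0.714 TPM in control libraries lay far below the 40.8 ± 12.1 TPM of SDHB. Reads of SDHA can fall on near-identical pseudogenes, and SDHAP1, SDHAP3 and SDHAP4 are in the table, so its count is uncertain.

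SDHB, the iron-sulfur subunit, was at 22.2, 23.6, 32.7 and 24.9 CPM in control and 19.2, 20.1, 32.8 and 26.6 CPM in cytokine libraries, a log2 fold change of -0.08 (SE 0.19). SDHD, a membrane anchor, was at 9.32, 10.7, 11.7 and 9.42 CPM in control and 9.82, 9.72, 10.5 and 10.4 CPM in cytokine libraries (-0.02, SE 0.14), the narrowest range of the complex. SDHC was at 14.3, 13.8, 38.7 and 28.5 CPM in control and 12.01, 12.5, 28.5 and 27.4 CPM in cytokine libraries (-0.23, SE 0.39), so that pairs C and D stood above A and B.

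Complex III had no called gene among 10. UQCR10, a small subunit, was the most abundant per exon length at 204 ± 44.5 TPM in control and 229 ± 29.4 TPM in cytokine libraries (n = 4 each). Its log2 fold change was 0.06 (SE 0.16). Per length of the longest transcript, UQCRH lay above UQCR10 in control libraries (206 against 174 TPM), and UQCRB had the highest mean CPM (105 in control). CYC1, which carries electrons to cytochrome c, was at 37.6, 33.6, 51.5 and 38.8 CPM in control and 37.2, 38.1, 57.9 and 38.4 CPM in cytokine libraries (0.08, SE 0.18), with the C library highest in each group. UQCRB, a subunit near the ubiquinone pocket, was at 73.5, 87.8, 142 and 118 CPM in control and 58.5, 60.0, 98.2 and 82.4 CPM in cytokine libraries. It was lower in each pair, by 0.33 to 0.55 on the log2 scale. Its log2 fold change of -0.48 (SE 0.23) had a limma FDR of 0.134 without and 1.69e-05 with the pair term. UQCRH had the same log2 fold change of -0.48. It has a near-identical copy, UQCRHL, in the list, so its count is uncertain.

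CYCS, the mobile carrier cytochrome c that is also released in apoptosis, was at 43.1, 43.8, 79.6 and 61.6 CPM in control and 54.7, 54.0, 94.8 and 75.6 CPM in cytokine libraries A to D. It was higher in the cytokine library of each pair, by 0.25 to 0.34 on the log2 scale, while the groups overlapped. The log2 fold change of 0.30 (SE 0.23, limma FDR 0.370) did not pass, and with the pair term the FDR was 0.00100 at a fold below the threshold.

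Complex IV was the only multi-gene set with a median above 0 on CPM (0.13, and 0.28 after TMM), with 9 of 12 genes above 0. None was called on CPM. COX6B1, which faces the intermembrane space, was at 44.2, 49.9, 66.5 and 54.7 CPM in control and 46.5, 42.4, 76.6 and 64.8 CPM in cytokine libraries (log2 fold change 0.07, SE 0.20). Its paralogue COX6B2, best known from testis, was below 1.2 CPM in every library and at 0.543 ± 0.358 TPM in control, against 224 ± 66.0 TPM for COX6B1. COX6B2 had the highest log2 fold change of the complex, 0.52 (SE 0.42, limma FDR 0.379), with overlapping groups.

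COX7A2, a small structural subunit, was at 25.7, 29.8, 54.1 and 37.8 CPM in control and 36.0, 39.0, 60.0 and 52.5 CPM in cytokine libraries (log2 fold change 0.37, SE 0.24). It was higher in each pair. Its paralogue COX7A2L, which links complexes III and IV into supercomplexes, went the other way in each pair, from 59.4, 58.3, 81.9 and 64.9 CPM to 47.3, 48.5, 65.3 and 55.0 CPM (-0.29, SE 0.15, limma FDR 0.166). Under the pair term the limma FDR was 0.000817 for COX7A2 and 0.00132 for COX7A2L, both at folds short of the threshold. COX4I1, the regulatory subunit IV, was at 79.2, 83.7, 159 and 119 CPM in control and 77.3, 72.3, 141 and 106.6 CPM in cytokine libraries (-0.14, SE 0.26). COX6A1 was at 12.3, 12.4, 5.91 and 4.58 CPM in control and 13.2, 15.04, 7.03 and 7.29 CPM in cytokine libraries (0.32, SE 0.36), so here pairs C and D stood below A and B.

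Complex V had the most even values: 16 of its 17 genes had a log2 fold change between -0.3 and 0.3, ATP5MG being the exception, and none was called. ATP5F1B was the most abundant transcript per length of all 90 genes, at 435 ± 139 TPM in control and 445 ± 93.9 TPM in cytokine libraries (n = 4 each). It was at 218, 232, 338 and 250.1 CPM in control and 229, 229, 292 and 238 CPM in cytokine libraries, a log2 fold change of -0.06 (SE 0.16, 95% interval -0.40 to 0.29).

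The 3 genes for the c subunit of the rotor encode the same mature protein. ATP5MC2 was the most abundant, at 175, 168, 186 and 152 CPM in control and 146, 149, 168 and 147 CPM in cytokine libraries (log2 fold change -0.16, SE 0.11). ATP5MC3 (-0.11, SE 0.17) and ATP5MC1 (-0.02, SE 0.14) lay at 63.3 ± 12.4 and 28.1 ± 4.76 CPM in control (n = 4 each). Their 95% intervals, like that of ATP5MC2, lay within 0.5 of 0. ATP5MK, a small membrane subunit, had the highest log2 fold change of the complex, 0.29 (SE 0.19, limma FDR 0.259 without and 0.0335 with the pair term).

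The summed level of the 90 genes was 3196, 3434, 4892 and 3808 CPM in control and 3247, 3195, 4337 and 3702 CPM in cytokine libraries A to D. On CPM only pair A was higher with cytokines. After TMM scaling the sum was 3254, 3384, 4259 and 3507 in control and 3464, 3445, 4551 and 3811 in cytokine libraries, higher with cytokines in all 4 pairs. For complex III the sum was lower with cytokines in all 4 pairs on CPM (416 to 388, 439 to 381, 618 to 529 and 492 to 439), but after TMM scaling pair C went the other way (538 to 555). The sum over complex V was 1152, 1250, 1798 and 1357 CPM in control and 1152, 1151, 1559 and 1288 CPM in cytokine libraries. After TMM it was 1173, 1232, 1566 and 1250.3 in control and 1229, 1241, 1636 and 1326 in cytokine libraries, higher in each pair.

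**Figure D3:**
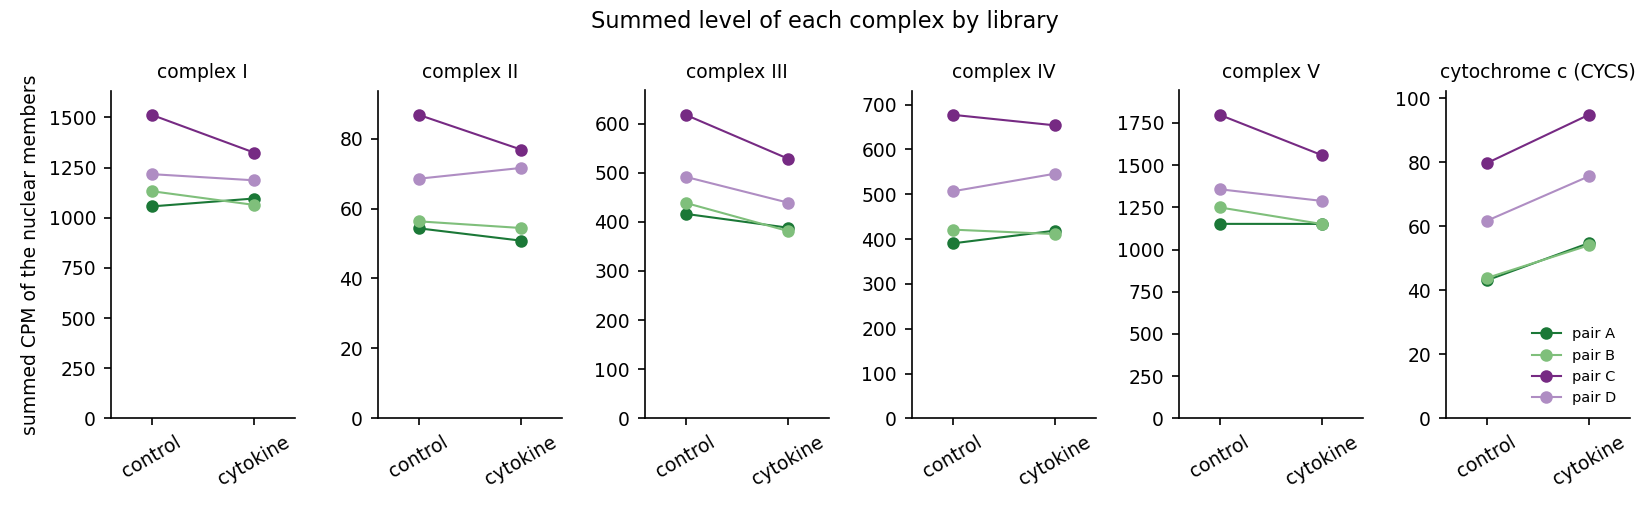
Summed CPM of the nuclear genes of each complex in each library, with lines joining the control and cytokine libraries of pairs A to D and each axis starting at 0. The pairs differ more than the conditions: complex I runs from 1056 to 1513 CPM among control libraries alone.

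The pairs differed more than the conditions in many of these genes. This contrast, chosen after seeing the data, compared pairs C and D with A and B over both conditions. Of the 90 genes, 32 (35.6%) were higher in C and D at the same thresholds, against 14.2% of all genes, and 8 (8.89%) were lower, against 6.50%. The median difference was 0.32 on the log2 scale for the 90 genes and 0.12 for all genes, and after TMM 0.22 and 0.02. After TMM, 25 of the 90 were higher and 10 lower, against 1438 and 1501 of all 16525 genes. The largest differences upward were in COX7C (1.26), SDHC (1.21), NDUFS5 (1.20) and NDUFA1 (1.20).

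The 8 genes lower in C and D were ATP5MF (-1.69), NDUFA7, COX6A1, NDUFA11, ATP5PO, SDHA, NDUFB8 and COX8A (-0.55). Of these, 7 share exon bases with another gene on the same strand, SDHA being the exception. ATP5MF was at 39.7, 43.4, 14.1 and 9.48 CPM in control and 35.6, 39.9, 13.4 and 12.2 CPM in cytokine libraries A to D. The cytokine contrast of ATP5MF was 0.00.

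Over all 90, 24 genes share exon bases on the same strand in GENCODE 29, not the annotation release of the counts. Of these, 3 were higher and 7 lower in C and D, with a median of -0.05. Of the 66 that share none, 29 were higher and 1 lower, with a median of 0.45. Among the other listed genes the medians were 0.03 over 2463 that share bases and 0.14 over 13614 that share none. Of the 2463, 244 were higher and 276 lower in C and D, and of the 13614, 2043 were higher and 760 lower. For the cytokine contrast the medians of the 24 and the 66 were -0.05 and -0.06. What the name endings stand for is not given in the sources used here, and the part of library preparation was not tested.

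**Figure D4:**
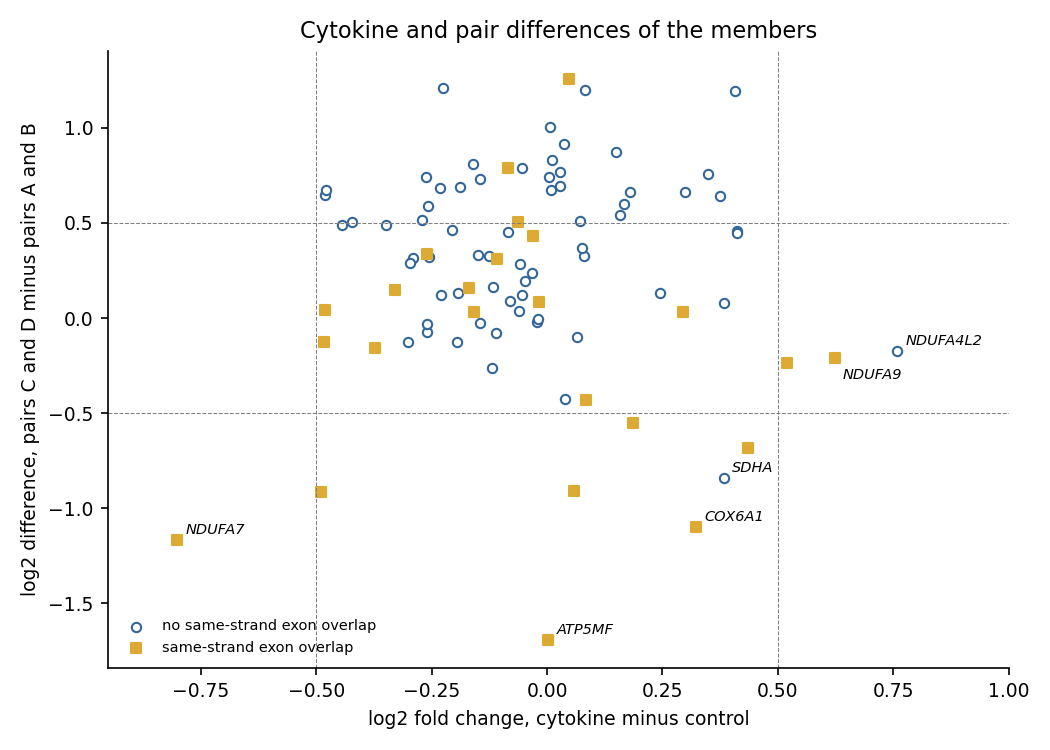
Log2 difference between pairs C and D and pairs A and B (vertical) against the cytokine log2 fold change (horizontal) for the 90 genes, with squares for same-strand exon overlap and dashed lines at 0.5. Most points lie within 0.5 horizontally and spread vertically up to 1.26, and the points below -0.5 are squares apart from SDHA.

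The median cytokine log2 fold change was -0.04 within A and B and -0.07 within C and D. A test of the difference between these effects (limma, FDR below 0.05 with a difference above 0.5) called 0 of the 90 genes, against 0.0303% of all genes, and 0 of the 90 had an unadjusted p below 0.05, against 488 of all genes. Across the 4 pairs, 17 of the 90 genes were higher in each cytokine library, against 3669 of all 16525 genes. Another 29 were lower in each, against 7199 of all genes.

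The genes around the nuclear subunits were followed as a list of 71 regulators, assembly factors and mitochondrially encoded subunits, of which 67 were listed. On CPM, 2 of the 67 were called higher, against 9.52% of all genes, and 4 lower, against 17.5%. PPRC1, a coactivator of mitochondrial biogenesis genes that is known to respond early to growth signals, rose from 38.7, 37.6, 30.4 and 32.6 CPM to 68.2, 66.6, 47.9 and 51.1 CPM, without overlap (log2 fold change 0.74, SE 0.15, limma FDR 0.00392). Of the other regulators listed, NRF1 (0.04), GABPA (-0.28), GABPB1 (0.62, limma FDR 0.0876), YY1 (-0.01), ESRRA (-0.13) and TFAM (-0.12) did not pass. GABPB1, a subunit of GABP, was at 5.13, 5.74, 8.42 and 6.92 CPM in control and 7.73, 7.18, 15.2 and 11.7 CPM in cytokine libraries A to D, higher in each pair. It was called higher after TMM (0.78, limma FDR 0.0286), by edgeR with TMM (0.84, FDR 0.0227), by DESeq2 (0.84, FDR 0.00356) and with the pair term (limma FDR 0.000496).

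SCO2, a copper chaperone for complex IV, rose from 4.62, 4.61, 6.99 and 5.67 CPM to 18.7, 17.8, 17.7 and 16.9 CPM (log2 fold change 1.70, SE 0.16, limma FDR 2.36e-05). SCO2 shares 28.3% of its exon bases on the same strand with TYMP, thymidine phosphorylase, an interferon-induced gene that rose by 4.48 on the log2 scale (SE 0.15, limma FDR 6.94e-09), from 3.27 to 4.04 CPM in control to 67.1 to 96.5 CPM in cytokine libraries. The part of TYMP reads in the SCO2 count was not tested. SCO1, the paralogous chaperone, was at -0.13 (SE 0.17, limma FDR 0.587).

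The assembly factors called lower were ACAD9 for complex I (-0.63, SE 0.15, limma FDR 0.0104), SDHAF4 for complex II (-0.61, SE 0.16, limma FDR 0.0163) and TTC19 for complex III (-0.58, SE 0.19, limma FDR 0.0357). ACAD9 was at 36.2, 41.1, 47.7 and 54.7 CPM in control and 29.4, 24.6, 27.6 and 33.8 CPM in cytokine libraries, without overlap. After TMM scaling none of the 3 passed the fold threshold, at -0.47, -0.45 and -0.43.

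The 13 mitochondrially encoded subunits, the partners of these genes in complexes I, III, IV and V, all had a log2 fold change below 0 (median -0.51, and -0.35 after TMM). Of the 13, 0 were called by limma without the pair term, against 27.0% of all genes, and 0 had an unadjusted p below 0.05. With the pair term all 13 were lower at an FDR below 0.05, against 6455 of all 16525 genes. MT-ND3, MT-ND4, MT-ND6, MT-CYB, MT-CO1, MT-CO3 and MT-ATP6 then also passed the fold threshold (-1.31 to -0.51), against 3935 of all genes called lower. With TMM and the pair term 10 of the 13 were lower, against 4729 of all genes. Only MT-ND3 (-0.65) and MT-ND6 (-1.15) of the 13 then passed the fold threshold, against 2685 of all genes called lower. Between pairs the 13 subunits went the other way from most nuclear genes: 12 were called lower in C and D, against 6.50% of all genes, and 1 higher. Their summed level was 131809, 128107, 45560 and 68486 CPM in control libraries A to D and 92950, 93201, 29884 and 47612 CPM in cytokine libraries A to D.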

How the data were processed

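RNA of 8 EndoC-βH5 libraries (4 control, 4 cytokine) was sequenced from strand-specific libraries. Per the paper's methods and the submitters' processing notes, the authors aligned reads with TopHat2 2.1.1 to GRCh38, counted them on Ensembl genes with HTSeq 0.9.1 at default settings, deposited CPM values of the genes that passed 0.5 CPM in 4 or more samples. HTSeq by default leaves out reads that overlap more than 1 gene or align to several places. In the 8 libraries used, 371 listed genes are above 0.5 CPM in fewer than 4, among them 1 of the 90 genes. Another 4 columns of values were not used. CPM totals include reads on rows not in the table (20.1% to 26.6%). All CPM values were whole multiples of 1 read (100% within 0.01 reads), which gave the reads behind them. Each of the 90 genes had a read in all libraries, at least 9.

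The members and gene lists were chosen with earlier results of these data known. The main test was limma 3.58.1 (R 4.3.3) with an intensity trend on log2(CPM + 0.1) over the 8 libraries, Benjamini-Hochberg adjusted over 16525 genes, which understates fold changes of low genes. Scripts were tested on simulated data. Alternatives were TMM and median-of-ratios scaling, CPM over nuclear genes, pseudocounts of 0.5 and 1, a filter at a mean of 1 CPM, edgeR 4.0.16 and DESeq2 1.42.0 on recovered reads, the pairs as a replicate block, a term for the column-name ending, and leaving out each library. Chosen after seeing the data were the contrast between pairs, the counts of intervals within the threshold and the split by exon overlap. For TPM, exon lengths came from GENCODE 29 (GRCh38), in which all 90 genes were found. Genes named singly were the called ones, the most abundant and the highest and lowest fold change of each complex, and the paralogue sets.

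The columns carry no replicate number. Columns whose names start alike were paired: deviations from the group mean correlated by 0.574, 0.590, 0.797 and 0.741 within pairs A to D, but control B with cytokine A by 0.594, which leaves A and B undistinguished. The chi-square of read counts between libraries of a group was at least 5.90 per gene, so none is a copy of another.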

Additional observations from a re-analysis of the deposited data

Results flagged for a closer look

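Among the 35 respiratory chain genes described singly, of which 7 were chosen after their values were seen, 5 of 70 groups of 4 libraries had 1 library far from the other 3, by Dixon's ratio of that gap to the group's range. Chance flags about 1 in 20 groups, and the genes share their libraries. In the cytokine group library C stood highest for ATP5F1B (292 CPM), ATP5MC2 (168 CPM), ATP5MC3 (76.1 CPM) and CYC1 (57.9 CPM). In the control group library C stood highest for ATP5MG (25.8 CPM). All 5 are libraries of pair C, and the cause was not tested.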

How the results depend on the processing

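The count of respiratory genes called higher, 2 on CPM, was 4 with TMM scaling, median-of-ratios scaling or edgeR with TMM, 5 with DESeq2, 10 with the replicate block plus TMM and 1 with CPM over nuclear genes. The count called lower, 0 by limma and also 0 by edgeR with TMM and DESeq2, was 2 with CPM over nuclear genes, 1 with the replicate block and 3 at an FDR alone. At an unadjusted limma p below 0.05, 7 of the 90 genes passed in either direction, against 6945 of all 16525 genes. Leaving out 1 library gave 0 to 3 called higher and 0 to 2 called lower. None was called higher without control B, control D, cytokine A or cytokine B, and 1 without control A, cytokine C or cytokine D. Of the 67 related genes, 2 called higher became 6 with TMM or edgeR with TMM and 4 with the replicate block, and 4 called lower became 0, 0 and 14. Over all 16525 genes, 1574 called higher became 2168, 2162 and 1917 in these settings, and 2896 called lower became 1911, 1892 and 3935. The median of the 90 genes ran from -0.16 to 0.05 over the left-out libraries, within the 0.268 spread of library medians, and was 0.10 with TMM. Both calls were kept under pseudocounts, the filter, edgeR without TMM and the term for the column-name ending. Beside NDUFA7, the replicate block without TMM changed no other call among the respiratory chain genes described singly. Of the related genes, GABPB1 and COX17 gained a call higher there, and the other gains were calls lower. Most causes of these moves were not tested. Depth did not leave any of the 90 genes without reads (9 or more in each library).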
